A study of Rattus norvegicus with 2 samples.

Results

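The probes described here are those of a rat gene expression array that carried no gene symbol in the deposited annotation and were detected on both arrays of the study. They were chosen by an empty symbol field and by the letter P, taken as detected, in both flag columns. Of 41012 probes in the table, 19141 had no symbol, and 8892 of these met the rule. A further 1444 carried P on 1 array only and 8805 on neither, and these were left out. Each value below is a log2 signal, and each difference is the signal of the AT-EEP array minus that of the AT-NS array, so that a difference of 1 is a signal 2-fold higher with EEP.

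Both groups were of male Wistar rats, aged 22 weeks, given 52% alcohol first, at 1% of body weight for 7 weeks. The AT-EEP rats then received EEP in a 50% ethanol solution and the AT-NS rats normal saline, each at 0.1% of body weight for 4 weeks, so that the groups also differed in the ethanol of the vehicle. EEP is not spelled out in the labels, and the title of the series names propolis extracts. The RNA was from liver, combined from 6 rats into 1 pool per group before labelling with Cy3, and each pool was put on 1 array. There are therefore 2 arrays with no replicate in either group, no test was possible, and the spread between animals is not known for any value.

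A probe without a symbol need not read an unknown gene. Many such probes on arrays of this generation were designed from expressed sequence tags, single reads from the ends of cloned cDNA, and many of these tags come from the far end of a long 3′ untranslated region of a known gene that the gene model of the time did not reach. Others lie on the strand opposite to a gene, in long noncoding RNAs, in predicted genes that were later withdrawn, in endogenous retroviruses or in the mitochondrial genome. The mitochondrial genome encodes subunits of the respiratory chain and the ribosomal RNAs of the organelle, and its transcripts are among the most abundant in hepatocytes. A probe near a stress, circadian or hormone response gene may read a longer or alternative 3′ end of that gene, which was not tested here.

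The genes that lay beside differing probes included metallothionein 1 (Mt1), a metal-binding protein of the acute phase and metal response, Edem1, which helps to remove misfolded glycoproteins from the endoplasmic reticulum, and Usp2, a deubiquitinating enzyme with a circadian rhythm. Their promoters are shown because 1 or more probes without a symbol and the named probe were lower together at each of them. The sequences are those of RefSeq in the assembly GRCr8 and run 5′ to 3′ on the gene's strand from 250 bases before to 50 bases after the annotated start. Capitals mark, on either strand, the metal response element core (TGCACNC or TGCGCNC) in Mt1. They mark CCACG, only 1 part of the endoplasmic reticulum stress element, in Edem1 and the E-box of clock factors (CACGTG) in Usp2. The whole stress element was not searched for. Motifs and promoters were picked after the values were seen.
Mt1, chr19:10832926-10833225, minus strand: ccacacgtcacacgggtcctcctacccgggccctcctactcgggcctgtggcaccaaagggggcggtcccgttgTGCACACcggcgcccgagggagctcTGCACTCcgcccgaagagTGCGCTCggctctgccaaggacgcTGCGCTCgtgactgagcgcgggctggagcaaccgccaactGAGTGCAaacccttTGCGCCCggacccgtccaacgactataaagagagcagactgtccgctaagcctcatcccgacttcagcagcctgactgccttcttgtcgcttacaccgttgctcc
Edem1, chr4:143353425-143353724, plus strand: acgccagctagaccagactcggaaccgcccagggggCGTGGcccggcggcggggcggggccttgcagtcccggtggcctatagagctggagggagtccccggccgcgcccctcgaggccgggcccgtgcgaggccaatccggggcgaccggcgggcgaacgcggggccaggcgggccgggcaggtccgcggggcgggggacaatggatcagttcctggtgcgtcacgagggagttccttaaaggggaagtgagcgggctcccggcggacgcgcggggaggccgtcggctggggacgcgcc
Usp2, chr8:53310620-53310919, plus strand: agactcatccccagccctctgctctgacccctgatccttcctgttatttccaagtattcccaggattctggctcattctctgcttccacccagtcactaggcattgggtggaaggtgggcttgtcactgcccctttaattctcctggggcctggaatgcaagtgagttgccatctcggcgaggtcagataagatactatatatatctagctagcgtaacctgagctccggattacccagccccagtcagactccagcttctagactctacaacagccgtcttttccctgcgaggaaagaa
The Mt1 window held 6 metal response cores, 3 of each form, 1 of them on the opposite strand. Either form occurred in 24.2% of 33469 promoter windows of this length, and 13 windows (0.0388%) held 6 or more. The Edem1 window held 1 CCACG, on the opposite strand, against 31.6% of all windows with at least 1. The letters CACGTG were not in the Usp2 window, and 6.42% of windows held them. A match is a description of the sequence and not a measured binding site. Promoter windows of Socs2, Onecut1, Trib1 and Ppp1r3b, named below, are not shown here.

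Of the 8892 probes, 3643 (41%) had the text of a single expressed sequence tag, 1266 (14.2%) that of an assembled cluster of tags, 862 (9.69%) that of a RefSeq transcript or model, 659 (7.41%) that of an Ensembl transcript and 522 (5.87%) that of a full-length cDNA sequence. A further 1752 (19.7%) had no text at all and 188 had other records. Signal differed by kind of record. The median over both arrays was 6.13 for single tags and 8.45 for full-length cDNA sequences, beside 6.80 over all 8892 probes and 8.05 over the 14162 detected probes with a symbol. A current symbol could be found for 432 of the probes through the RefSeq table, 19 by accession, 267 by a gene ID in the text, 93 by a symbol and 53 by a synonym, and 17 of the 432 (3.94%) differed 2-fold or more, against 4.16% of all detected probes.

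Between the pools, 158 of the 8892 probes (1.78%) were at least 2-fold higher with EEP and 236 (2.65%) at least 2-fold lower. Over all 23054 probes with P on both arrays the shares were 1.67% and 2.49%, and over the detected probes with a symbol 1.61% and 2.39%. The share of probes without a symbol that lay past 2-fold was thus close to that of the array as a whole. Their median difference was 0.03, against 0.02 for probes with a symbol, and 7681 (86.4%) lay within 1.5-fold. Differences ran from -4.99 to 3.92. These values chose the members that follow, so they are a description.

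Differing probes were mostly dim. The median signal of the 394 was 5.98, and 343 of them lay under a mean signal of 8. Among probes without a symbol with a mean signal from 5 to 6, 155 of 1853 (8.36%) lay past 2-fold, and among those of 12 or more 4 of 465 (0.86%). Probes with a symbol showed shares of 7.11% and 2.49% in the same ranges. The brightest range was thus the one in which the probes without a symbol least often reached 2-fold, and the plot of shares by signal shows both sets.

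**Figure D1:**
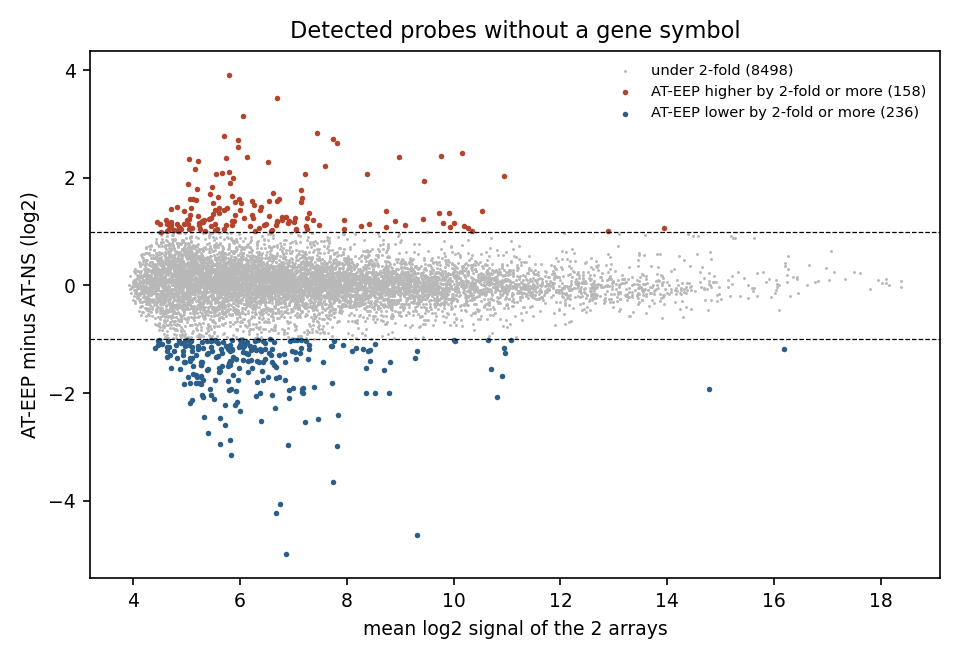
Difference between the pools (AT-EEP minus AT-NS, log2) against the mean log2 signal of the 2 arrays for the 8892 detected probes without a gene symbol, 1 point per probe, with dashed lines at 2-fold. The 158 higher and 236 lower probes lie mainly at mean signals between 5 and 8.

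**Figure D2:**
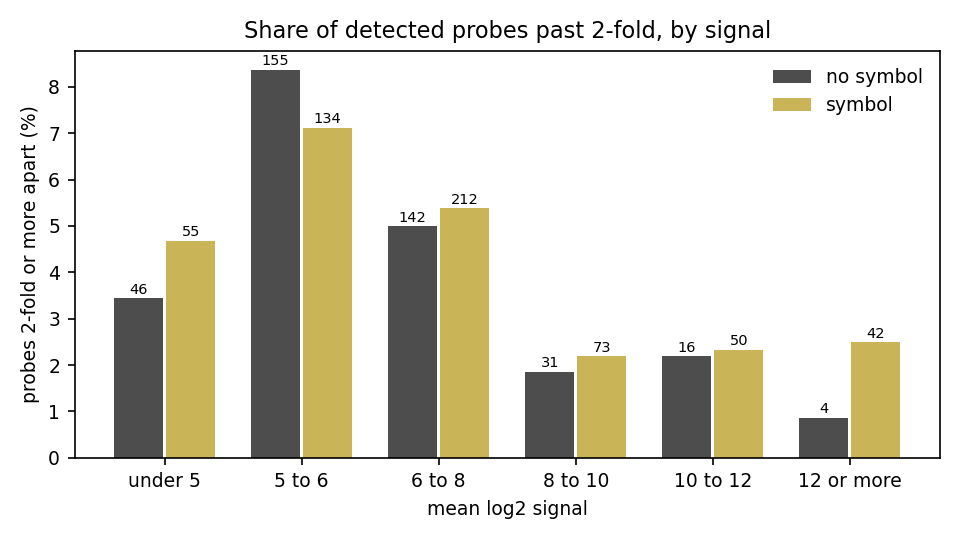
Percentage of detected probes that differed 2-fold or more in either direction, by range of mean log2 signal, for probes without and with a gene symbol; the number on each bar counts the differing probes. Both sets peak between 5 and 6, at 8.36% and 7.11%, and differ most at 12 or more, at 0.86% and 2.49%.

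The threshold divided probes of nearly equal difference. The 3 probes just inside it on the higher side had differences of 1.0006, 1.0052 and 1.0069, and the 3 just outside 0.9998, 0.9969 and 0.9963. On the lower side the values were -1.0015, -1.0057 and -1.0061 inside and -0.9961, -0.9947 and -0.9943 outside.

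Among the 12 probes furthest lower with EEP, 8 had a signal under 5 on the AT-EEP array, near the lowest detected signal of 3.83. The lowest was A_44_P439554, an expressed sequence tag with a signal of 4.37 with EEP and 9.36 with saline, 31.7-fold lower. It lay 7300 bases from a probe of Ddx47, an RNA helicase gene, on the opposite strand, and that probe differed by 0.22. A_44_P158994 followed at 7.00 with EEP and 11.63 with saline, 24.8-fold lower. Its text names vitamin D-binding protein, while its coordinates lie on chromosome 1 beside Saa4, a serum amyloid A gene, and the named probe of the vitamin D-binding protein gene Gc lies on chromosome 14. The Gc probe read 17.49 with EEP and 17.14 with saline, and the 2 Saa4 probes differed by -0.36 and -0.88, so that neither candidate showed a difference of that size.

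A_44_P768645, with no text and no detected named probe near, read 4.57 with EEP and 8.79 with saline. A_44_P108504, from a tag cluster with partial similarity to secernin 1, read 4.71 and 8.78. Another probe on the same strand, nearby and also without a symbol (A_44_P376677), read 4.36 and 6.19. The pair was thus lower together, by -4.07 and -1.83, while the nearest named probe, of Wipf3 on the opposite strand, differed by -0.63. The other probes of this group were A_44_P308416 beside Mt1, A_44_P347651, which overlaps a Timm21 probe on the opposite strand that differed by 0.36, A_44_P251875 beside Ube2c, A_44_P399864, A_44_P219137, A_44_P541505 from a predicted gene similar to spermatogenesis associated glutamate-rich protein 4d, A_44_P170081, and A_44_P100913 from an Ensembl transcript named for Zwilch, a kinetochore protein. Their differences ran from -3.65 to -2.59. Of the 12, 8 had a detected named probe within 10 kb, and 2 of those named probes were also 2-fold lower.

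Among the 12 probes furthest higher with EEP, 6 had a signal under 5 on the AT-NS array. A_44_P436628, a tag from an ovary library, read 7.76 with EEP and 3.84 with saline, 15.1-fold higher. The nearest named probe, of the transcriptional repressor gene Rest on the opposite strand, differed by 0.06. A_44_P851762, a brain tag, read 8.43 and 4.95, and A_44_P267212, without text, 7.63 and 4.48. Neither had a detected named probe near. The brightest of the 12 was A_44_P916132 on chromosome 1, also without text, at 11.38 with EEP and 8.92 with saline, 5.48-fold higher. The others were A_44_P256188, A_44_P795940, A_44_P280306, A_44_P567880, 1 probe beside Onecut1, 2 beside Socs2 and A_44_P234315 beside Mlycd, with differences from 2.38 to 2.83. Of the 12, 5 had a detected named probe within 10 kb, and for 3 of them that probe, the same one for both beside Socs2, was also 2-fold higher.

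Coordinates placed 7719 of the probes on a chromosome with a span of at most 10 kb, 333 of them differing 2-fold. No source used here names the genome build of these coordinates. A probe with a symbol lay within 10 kb of 4334 probes (48.7%) and of 181 of the 394 differing ones (45.9%). Restricted to named probes detected on both arrays, 3918 probes had such a neighbour, 147 of them differing. The nearest named probe was itself 2-fold apart for 29 of the 147 (19.7%), against 2.37% of all 3918. For 27 of the 29 (93.1%) it lay on the same side as the probe without a symbol, against 69 of the 93 (74.2%) among all probes with a neighbour 2-fold apart. The nearest named probe lay on the same side of 0, by any amount, for 96 of the 147 (65.3%), against 62% of all 3918. The named probe lay within 1.5-fold for 94 of the 147 (63.9%), against 3582 of all 3918 (91.4%). Both probes of a pair were read on the same 2 arrays, so that their likeness says nothing of other animals.

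Brightness and strand divided these pairs. Of 73 differing probes with a mean signal under 6, 43 (58.9%) had a named neighbour on the same side of 0, against 59.4% of all probes in that range. From 6 to 8 it was 31 of 50 (62%), against 62.7%. At 8 or more it was 22 of 24 (91.7%), against 64.5%, and in 10 of these 24 the named probe was past 2-fold too. The 2 exceptions among the bright probes were A_44_P406636 near Abca1 and A_44_P252078 near Laptm4b. A probe on the same strand as its named neighbour matched its side in 43 of 60 differing cases (71.7%), against 63.2% of all such probes, and one on the opposite strand in 53 of 87 (60.9%), against 60.9%. Probes on the opposite strand were dimmer, with a median signal of 6.04 against 7.52, so that strand and signal moved together. Probes downstream of the named probe on its own strand, where a longer 3′ end would lie, matched its side in 34 of 46 differing cases (73.9%), against 63.4% of all 1447 probes so placed.

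**Figure D3:**
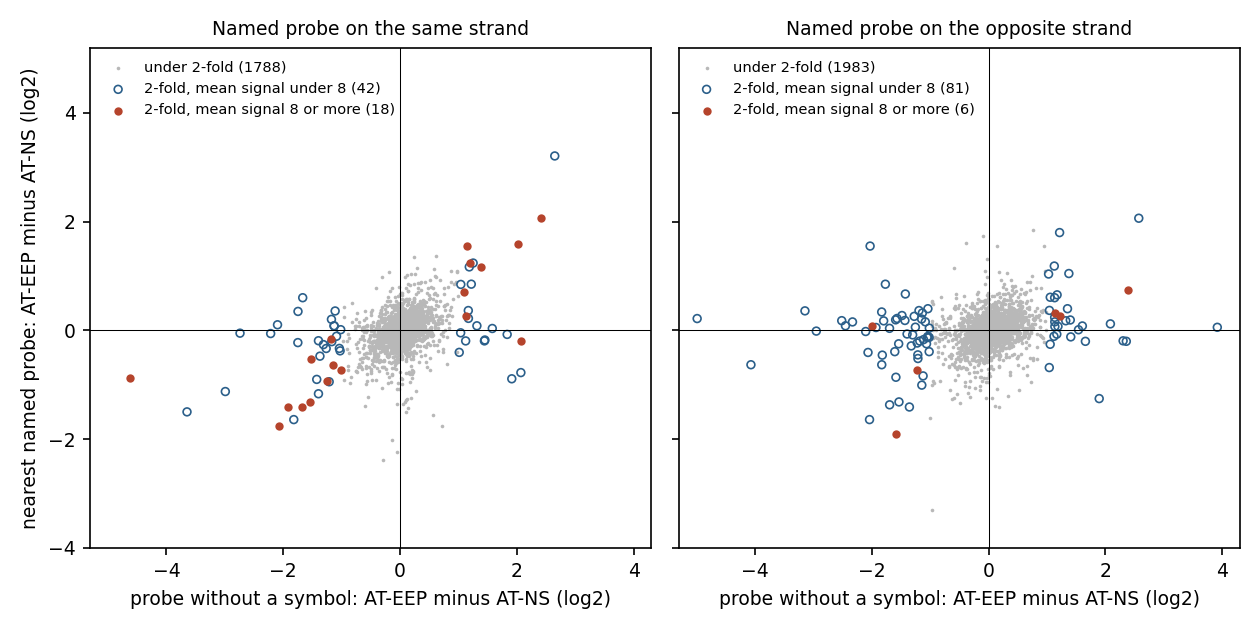
Difference of the nearest detected named probe within 10 kb against the difference of the probe without a symbol (both AT-EEP minus AT-NS, log2), for neighbours on the same and on the opposite strand. Filled points, the differing probes with a mean signal of 8 or more, lie on the same side of 0 as their neighbour in 22 of 24 cases, and open points, the dimmer differing probes, spread along the horizontal axis.

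The 27 probes that were 2-fold apart together with their named neighbour lay beside 20 genes, 10 higher and 10 lower with EEP. Among the higher genes, 4 act in signalling and transcription. Socs2, a feedback inhibitor of growth hormone signalling, had 2 probes without a symbol beside it that overlap on opposite strands of chromosome 7. A_44_P371050 (32605117 to 32605176, same strand as the Socs2 probe) read 10.97 with EEP and 8.56 with saline, and A_44_P837483 (32605161 to 32605220, opposite strand) read 7.24 and 4.67. The Socs2 probe, 650 and 606 bases away, read 6.59 and 4.53. All 3 were thus higher, by 2.41, 2.57 and 2.06.

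Onecut1, a transcription factor of liver and bile duct development, was higher at its named probe, 12.42 with EEP and 9.21 with saline. A_44_P845543, on the same strand 6054 bases downstream (chromosome 8, 79678671 to 79678730), read 9.15 and 6.50. Trib1, a pseudokinase that regulates hepatic lipogenesis and secretion of lipoproteins, read 7.69 and 6.52 at its named probe. Both probes without a symbol downstream of it were higher as well, A_44_P230720 at 7.61 and 6.43 and A_44_P591857 at 11.21 and 9.84. Vgll4, a cofactor of TEAD transcription factors, read 11.05 and 9.81. Its downstream probes A_44_P822364 and A_44_P477212 read 9.51 and 8.31, and 7.88 and 6.63, so that all 3 differed by 1.20 to 1.25.

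The other higher genes included 2 of mitochondrial fuel use. Pdk4, the kinase that switches off pyruvate dehydrogenase in fasting, read 7.78 with EEP and 6.19 with saline. A_42_P736573, a full-length cDNA sequence on the same strand 5242 bases downstream (chromosome 4, 30233848 to 30233907), read 11.96 and 9.93. Eci1, an enoyl-CoA isomerase of fatty acid oxidation given under its older symbol Dci, read 15.02 and 13.48. A_44_P962319, upstream of it on the same strand, read 10.38 and 9.23. Osgin1, an oxidative stress response gene, read 12.42 and 10.62, and A_44_P336798, on the opposite strand, 7.98 and 6.76. Dimmer probes on the opposite strand lay beside Ckap4, a membrane protein of the rough endoplasmic reticulum, Mettl7a and LOC100365958, with differences of 1.13, 1.38 and 1.03 against 1.18, 1.05 and 1.04 for the named probes. Short of 2-fold at the named probe, Mlycd, malonyl-CoA decarboxylase, differed by 0.74 beside A_44_P234315 (10.17 and 7.79), and Dhcr7, an enzyme of the last step of cholesterol synthesis, by 0.70 beside A_44_P577773 (8.81 and 7.72).

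Of the lower genes, Edem1 carried the most probes. A_43_P11230, a tag from lung (chromosome 4, 144382442 to 144382501), read 13.83 with EEP and 15.75 with saline. A_44_P592381, nearer to the named probe on the same strand, read 10.07 and 11.75, and A_44_P388437, on the opposite strand, 4.14 and 5.49. The named Edem1 probe read 8.44 and 9.85. Differences of -1.92, -1.68, -1.35 and -1.41 thus came from probes of very different signal.

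Usp2 had 2 probes without a symbol downstream of its named probe, on opposite strands of chromosome 8. A_44_P851720 (47077125 to 47077184) read 6.82 and 8.64, A_44_P206611 (47077445 to 47077504) 5.59 and 7.63, and the Usp2 probe 8.79 and 10.44. All 3 were lower by 1.64 to 2.04 log2 units. Mt1 read 15.47 with EEP and 16.97 with saline at its named probe, listed as Mt1a. A_44_P308416, from a full-length cDNA sequence 502 bases upstream on the same strand (chromosome 19, 11262268 to 11262327), read 5.92 and 9.56, 12.5-fold lower. The neighbouring metallothionein gene Mt2A read 13.27 and 15.23 at its own probe.

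Genes of metabolism were also among the lower ones. Acmsd, which diverts tryptophan breakdown away from NAD synthesis, read 6.91 and 8.67. A_44_P752200, without text, 1541 bases downstream (chromosome 13, 40545765 to 40545824), read 9.77 and 11.85. Gstk1, a glutathione transferase of mitochondria and peroxisomes, read 12.77 and 14.14, and A_44_P148634, overlapping it on the opposite strand, 5.88 and 7.57. Ppp1r3b, which directs protein phosphatase 1 to glycogen, read 6.68 and 8.57. A_44_P562292, on the opposite strand 1259 bases away, read 7.92 and 9.496, though its text names a partial match to a human immunoglobulin kappa chain.

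Tent5c, a poly(A) polymerase listed as LOC310721, read 6.10 and 7.42. A_42_P577482 on its strand read 9.92 and 11.47, and A_44_P294556 on the other 5.47 and 7.00. Ube2c, a ubiquitin-conjugating enzyme of mitosis, read 4.90 and 6.03, and A_44_P251875, 5388 bases downstream, 6.33 and 9.32. A brighter named probe within 10 kb of A_44_P251875, for Dnttip1, read 11.27 and 11.32, a difference of -0.04. Zfp36, which promotes decay of mRNAs with AU-rich elements, read 6.27 and 7.27 beside A_44_P474179, an opposite-strand probe at 4.52 and 5.66. LOC687661 read 4.10 and 5.27 beside A_44_P638274 at 5.12 and 6.52. The named probes of Tent5c, Ube2c, Zfp36 and LOC687661 all had signals under 7.5 on both arrays.

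**Figure D4:**
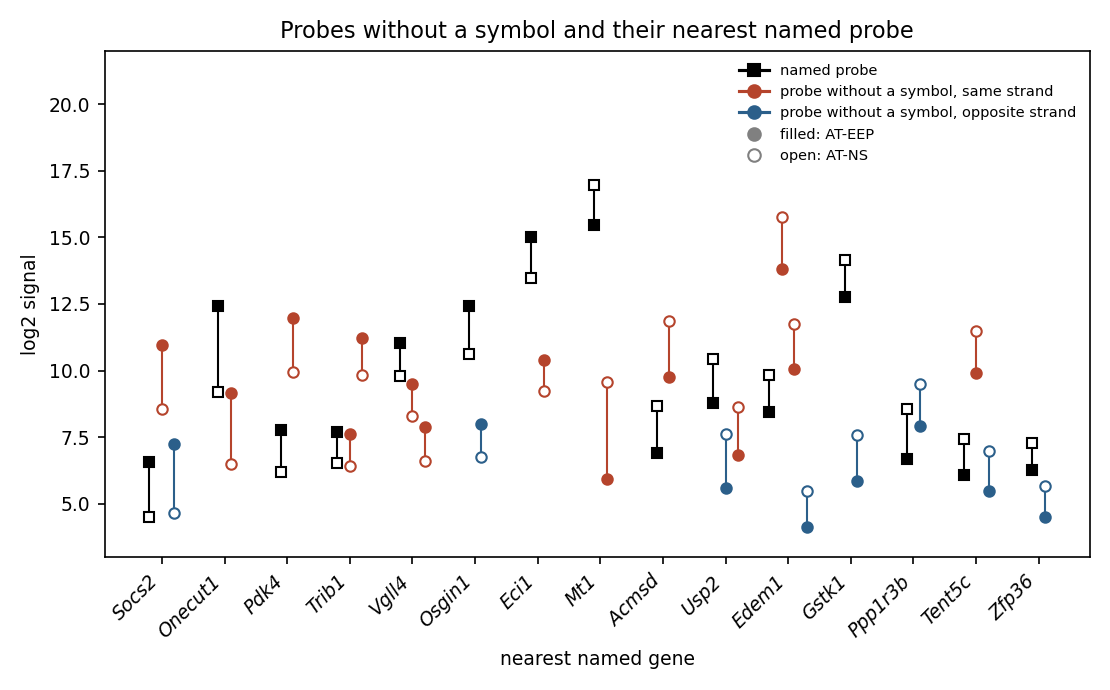
Log2 signals on both arrays at 15 genes, for the named probe (squares) and the differing probes without a symbol nearest to it (circles, coloured by strand); filled symbols are AT-EEP and open symbols AT-NS. At Socs2, Onecut1, Pdk4, Trib1, Vgll4, Osgin1 and Eci1 the filled symbols lie above the open ones, and at the other 8 genes below them, for all probes drawn.

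Several pairs went apart. A_44_P268069 was lower (4.27 with EEP, 6.30 with saline) 51 bases from a Tmem116 probe that was higher (5.68 and 4.13). A_44_P446707 was higher (5.98 and 4.09) 228 bases from a probe of Pggt1b, a subunit of a protein prenylation enzyme, that was lower (5.59 and 6.84). Both lie on the strand opposite to the named probe and all signals of both pairs were under 7. A_44_P822920, opposite to Nr1i3, the nuclear receptor CAR that regulates drug metabolism, read 5.56 and 7.32, while the 2 Nr1i3 probes differed by 0.85 and 0.97 with signals near 10. A_44_P406636, downstream of the cholesterol exporter gene Abca1 on its strand, read 9.41 and 7.35, while the Abca1 probe differed by -0.20. A brighter named probe within 10 kb of A_44_P406636, for Nipsnap3b, read 13.69 and 13.45, a difference of 0.24. The side of the neighbour thus depended here on which named probe was taken. A second probe from the same cDNA sequence as A_44_P406636 differed by -0.21.

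By the function of the neighbour, 48 probes lay nearest to a detected gene of drug metabolism or transport, and 3 of them differed 2-fold (6.25%), against 4.16% of all detected probes. These were the probes beside Abca1 and Gstk1 described above and A_44_P257250 opposite to Slco1b2, the bile salt and drug uptake transporter, at 5.84 and 4.67. Beside lipid genes 1 of 14 differed, A_44_P781533 near the desaturase gene Fads3, at 10.03 with EEP and 8.80 with saline. Of 15 beside acute phase and complement genes 2 differed, both lower, and of 9 beside interferon response genes none did, with medians of -0.15 and -0.20 against 0.03 over all 8892. The named neighbours in these last lists had medians of -0.22 and -0.38.

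Of the acute phase pair, A_44_P411131 was among the brightest differing probes, at 15.59 with EEP and 16.77 with saline. Its text is the haptoglobin gene (Hp), the haemoglobin-binding acute phase protein, and it lay 2332 bases upstream of the named Hp probe on the same strand (chromosome 19, 39445721 to 39445780). The named Hp probe read 18.20 and 18.36, near the top of the scale at 18.57, and differed by -0.16. A_44_P463980, whose gene ID is now named Ifitm3-ps1, a pseudogene of an interferon-induced membrane protein, read 10.36 and 11.52. Picked after their values were seen, lower probes also lay beside Ctss, a cathepsin of antigen presentation (-1.12 beside -0.84), Cmklr1, the chemerin receptor (-1.21 beside -0.94), and Angptl2 (-1.43 beside -0.90). Some of these signals were dim too. The probe beside Ctss read 4.41 with EEP and 5.53 with saline, and the named Cmklr1 probe 4.27 and 5.22. Other pairs went apart, such as A_44_P855333, higher by 2.07 beside Stk17b at -0.78. Septin1 read 5.06 with EEP and 3.92 with saline, the latter near the lowest detected signal of 3.83. It differed by 1.14 and lay within 10 kb of A_44_P151179 at -1.59. The nearest named probe to A_44_P151179, for Myl11, differed by 0.19.

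Markers of macrophages were read on the same 2 arrays. All 5 listed markers (Cd68, Cd163, Marco, Clec4f and Csf1r) were detected and lower with EEP, from -0.42 to -2.53, and their summed signal was 15.14 with EEP and 15.69 with saline on the log2 scale. All 3 measured erythroid markers were lower too, with summed signals of 11.55 and 12.40. The 5 hepatocyte markers summed to 19.87 and 19.76, a sum carried by Tf, Alb and Ttr near the top of the scale at 18.57. Alb and Ttr differed by 0.21 and 0.26 and Tf by 0. Apoa1 differed by -0.11, and Cps1, the dimmest hepatocyte marker, by -0.56 (11.09 with EEP and 11.65 with saline). Both endothelial markers were lower (-0.63 and -0.39), and the 3 stellate cell markers were higher (0.25 to 0.48). Of the T cell markers Cd3g differed by 0.21, and Cd3e and Cd2 were not detected on either array. The 2 measured bile duct markers, Krt19 and Epcam, differed by -0.66 and 0.67. The part of these shifts in the values above was not tested, and in pooled tissue fewer cells of a type and less RNA per cell cannot be told apart.

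Among the differing probes whose text or ID named a gene, a few stand out by signal. A_44_P956005, from the Ensembl transcript of the mitochondrial carrier Slc25a30, read 10.41 with EEP and 8.47 with saline. The named Slc25a30 probe, further off on chromosome 15, read 7.21 and 5.36, so that the pair differed by 1.94 and 1.85. A_42_P686078, from an Ensembl transcript for adipogenin, a protein of fat cell differentiation, read 7.31 and 4.93. Unc5d, a netrin receptor of neurons, was named through its accession, and A_43_P22805 read 8.25 and 6.18. A tag probe near it on the same strand of chromosome 16 (A_44_P654434) read 6.85 and 4.74, while a second probe of the Unc5d sequence read 5.11 and 5.02. Spmip6, also named through its accession, read 7.48 and 5.90, while a dim Myorg probe within 10 kb differed by 0.04. The other probes that took a current symbol and differed included Cldn25, Osbpl3 and Etv3 on the lower side and Abhd8 and Mlkl on the higher, all with mean signals under 7. The brighter Mrpl34 probe within 10 kb of the Abhd8 probe differed by 0.08. Named probes of the same gene did not always match. Appl1 differed by -1.23 against 0.59 at its named probe, and Clcn6 by -1.40 against -0.19. Rpl37a differed by 1.54 against -0.07, 0.01 and 0 at its named probes. Etv3 and Rhobtb1 also have named probes, whose values are not given here.

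Probes that share a source gave a rough measure of how far 2 probes can differ. Some sources are genomic segments, whose probes need not read 1 gene. Some 575 probes fell into 270 groups with 1 accession each, and the robust SD of a single probe's difference within such groups was 0.19. In 11 groups at least 1 probe was past 2-fold, and the brightest 2 probes were on the same side of 0 in 4 of these, against 62.2% of all 270. The 11 include the group of A_44_P181145, from a genomic segment of the histocompatibility complex. The widest gap was that of a kidney tag with 1 probe at 4.16 with EEP and 7.11 with saline (A_44_P219137) and the other (A_44_P151114) at 5.99 and 5.64. In a full-length cDNA sequence on chromosome 1 both probes were bright and went opposite ways, A_44_P837560 at 13.40 and 12.39 and A_44_P758422 at 10.27 and 11.16. By position, 3168 probes fell into 1296 groups within 10 kb of each other, of which 97 held a differing probe and 13 held 2 or more. The differing probes of a group shared a direction in 10 of these 13, among them the Socs2, Trib1, Vgll4, Usp2, Edem1, Tent5c and Unc5d groups and the pair near Wipf3.

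A set of probes for endogenous retroviruses and other mobile elements, collected by their text after the values were seen, held 7 members outside tag clusters, and all 7 were higher with EEP. A_44_P175299 and A_44_P959890, both from 1 endogenous retrovirus record, read 15.65 with EEP and 14.72 with saline, and 15.67 and 14.78. The remaining probe of that record (A_44_P594411) read 8.13 and 7.50. A_44_P403877, for the VL30 element, a retrovirus-like repeat of rodents, read 12.55 and 11.58. A_44_P123965, for a predicted gene similar to a retroviral envelope, read 10.59 and 9.23 and was the only 1 of the 7 past 2-fold. The gag-related and transposase-related probes differed by 0.10 and 0.13. The median of the 7 was 0.89, against 0.03 over all 8892, and 3 of the 7 share a sequence.

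Other text groups, also collected after the values were seen, were read against the 4.43% of all 8892 probes past 2-fold. Among 13 probes for immunoglobulin chains 1 was 2-fold higher and 2 lower (23.1%), with differences from -1.25 to 1.14, a median of 0.51 and a median signal of 6.05. Of 5 probes for cytochrome P450 enzymes, which oxidise drugs and lipids, none was past 2-fold, 4 lay above 0 and the median was 0.56. Among 16 probes whose text names the histocompatibility complex, its genes or a haplotype of it, 1 was higher and 1 lower (12.5%). Most of the 16 carry only the text of a genomic segment of the complex, which names no gene, and 1 is for a T-cell receptor chain. The higher probe (A_44_P181145) is from such a segment, and the lower (A_44_P553031) from a predicted class II gene. Of 137 probes for ribosomal proteins or their copies, bright at a median signal of 12.03, 1 was higher and 2 lower (2.19%), and the median difference was -0.05. Probes for near-identical gene copies can take up each other's RNA, so that these values may not belong to 1 gene.

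By their coordinates, 43 of the probes without a symbol lay on the mitochondrial genome, and none of these was past 2-fold. The text of 1 of them, A_44_P329712, names a 3 beta-hydroxysteroid dehydrogenase isomerase mRNA. Differences ran from -0.21 to 0.78, and 37 of 43 lay above 0, with a median of 0.20. At a mean signal of 12 or more, 25 of 26 mitochondrial probes lay above 0, with a median of 0.21, against 192 of the other 439 probes without a symbol in that range, with a median of -0.04. Of the 17 dimmer mitochondrial probes 12 lay above 0. Signals divided by strand: the 28 probes of the plus strand, which carries most of the genes as given here, lay between 9.53 and 18.03 with saline, and the 15 of the minus strand between 5.24 and 9.94. These 43 probes lie on 1 short genome, and many overlap, so they are not independent readings.

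Differences by gene, without a replicate check, were as follows. The 8 probes for Cox2, a subunit of cytochrome c oxidase, differed by -0.07 to 0.26, and those for Cox1 and Atp6, of the oxidase and of ATP synthase, by 0.25 and 0.22. The 2 probes for Nd2, a subunit of complex I, read 13.85 with EEP and 13.27 with saline, and 14.85 and 14.27. Nd5, another subunit of that complex, read 15.11 and 14.48. The 4 probes for Cytb, of complex III, differed by 0.33 to 0.58, and Cox3 by 0.54. Among the plus strand probes, values of 0.5 or more came from Nd2, Nd5, Cox3, 1 Cytb probe and the D-loop, while the Cox2 probes lay at 0.26 or less. The Cox2, Cox1 and Atp6 probes read 15.36 to 18.15, nearer to the top of the scale at 18.57 than the Nd2 and Nd5 probes at 13.27 to 15.11, but Cox3, at 16.54 with EEP, lay within that higher range and differed by 0.54. The part of signal in these differences was not tested. The plus strand probes at the start of the genome, within the ribosomal RNA region by position, had no gene in their text and differed by 0.01 to 0.31.

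**Figure D5:**
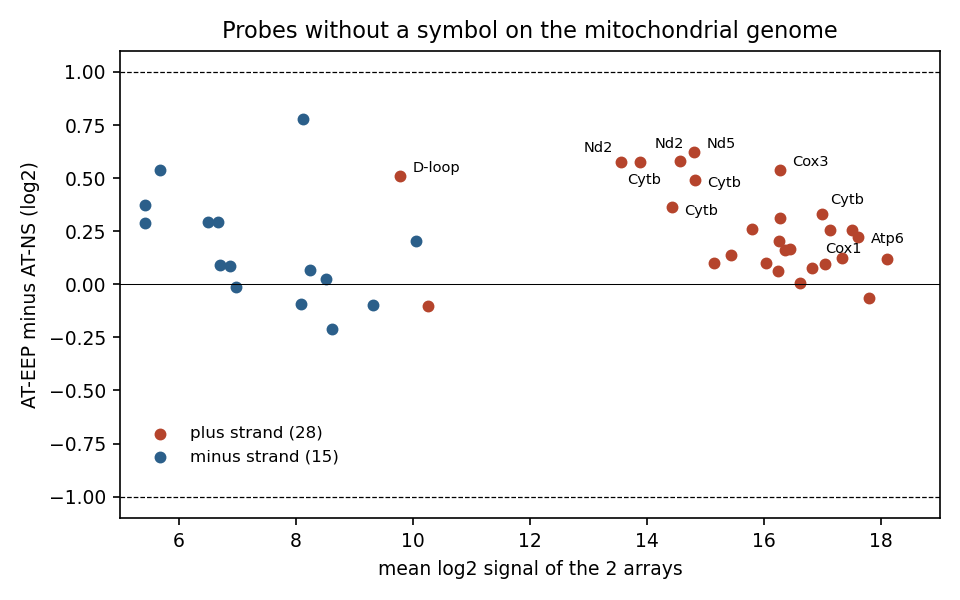
Difference (AT-EEP minus AT-NS, log2) against the mean log2 signal for the 43 probes on the mitochondrial genome, coloured by strand, with dashed lines at 2-fold. Named points give the gene in the probe's text; the Cox2 probes and those without a gene in the text are not labelled, and among the bright probes those for Nd2, Nd5, Cox3 and 1 of 4 for Cytb lie between 0.54 and 0.62.

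The 10 brightest probes without a symbol had mean signals from 17.50 to 18.38 and differed by -0.07 to 0.26. Mitochondrial genes gave 4 of them, 3 for Cox2 and 1 for Atp6. A_44_P137215, from a tag similar to ribosomal RNA, read 18.05 with EEP and 18.00 with saline. The other 5 were A_44_P148776, A_44_P137218 and A_44_P137217 from tags, A_44_P348286 from a record called an estrogen induced gene, and A_44_P333811 from a tag cluster. These signals lie near the top of the scale at 18.57.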

How the data were processed

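Per the submitters' processing notes, Agilent Feature Extraction 9.5 was used on the one-colour arrays. RNA integrity numbers exceeded 8.5, per the labels' protocols. The authors deposited log2 values for 41012 probes, with a flag letter per array and a linear fold ratio. The sorted columns differed by at most 0.0255, as after quantile normalization; no source used here states the normalization, background correction, meaning of the letters or genome build. The deposited ratio equals 2 to the power of AT-EEP minus AT-NS. The authors' series matrix holds the same log2 values rounded, uncentred, for the 23054 probes flagged P on each array, with medians of 7.53 (AT-EEP) and 7.52 (AT-NS).

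The members, lists and placement rules were chosen with earlier results of these data known. Differing means at least 2-fold. Each placed probe (span up to 10 kb, assembled chromosomes) was paired with the nearest probe with a symbol within 10 kb. Coordinates padded with zeros and unpadded ones were taken as 1 build: of probes sharing a UniGene cluster with a named probe, 92.9% of padded and 85.9% of unpadded lay within 100 kb of it. Symbols were updated by Entrez ID to RefSeq (GRCr8), used for names and promoters only. Probes named are the 12 highest and lowest, those whose neighbour was also 2-fold apart, those with a current symbol, groups, the 10 brightest and those at the threshold; the mobile element, mitochondrial and other text groups and further neighbours were chosen after their values were seen. Alternatives are given at the end. Python 3.11.15, numpy 2.4.6, pandas 2.3.3, statsmodels 0.14.6 and matplotlib 3.10.9 were used. The number of arrays limits precision.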

Additional observations from a re-analysis of the deposited data

How the results depend on the processing

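The counts of probes 2-fold higher and lower (158 and 236) did not move by over 1.5 times under median centring, quantile normalization, a loess curve on signal, the series matrix values or with each accession counted once (139 to 161 and 232 to 272). They were 47 and 68 with 50 signal units added, 76 and 117 at a mean signal of 6 or more, 516 and 679 with P on at least 1 array, 938 and 1078 with no flag filter, 607 and 604 at 1.5-fold, and 42 and 77 at 3-fold. The last 5 settings change by construction which probes enter or which threshold they meet. The loss with 50 units added came at dim probes, which this setting compresses. Median centring, quantile normalization and the series matrix values could hardly change the counts. The 2 columns had equal medians (5.07) and nearly equal sorted values, and the series matrix holds the same values rounded. The median difference of 0.03 turned to -0.0063 under loess, and was 0.019 with 50 units added and 0.016 at a mean signal of 6 or more; the cause was not tested. Differing probes near a named probe numbered 181, 91 with a window of 2 kb and 96 on the same strand only, and 245 with 50 kb. Those on the side of their neighbour numbered 96 of 147 (65.3%), against 62% of all probes. They were 51 of 74 within 2 kb (68.9%, against 63.4%) and 52 of 77 on the same strand (67.5%, against 62.2%). With 50 kb they were 129 of 211 (61.1%, against 59.9%). Pairing by UniGene cluster, chosen after seeing the data, gave 48 of 82 (58.5%), against 63.8% of all 2043 probes so paired. Named neighbours in that result always had P on both arrays, so that alternative equals the value given. No paired analysis was possible because each group has 1 array. Signal over background limits the dim probes, where most differing probes lie.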
